A study of Caenorhabditis elegans with 2 samples.

Results

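The 10 genes described here are the AIY interneuron selector gene ttx-3, its partner ceh-10, and 8 genes known as targets of these factors in AIY (ceh-23, ser-2, mod-1, sra-11, unc-17, cho-1, kal-1 and hen-1). They were taken by name from 19973 annotated protein-coding genes of *Caenorhabditis elegans* (nuclear chromosomes), by a rule that uses no signal value, though with earlier results of these data known, and all 10 were found in the annotation. REF-2 is a Zic-type zinc finger protein that binds DNA. Its binding was measured by ChIP-seq with an anti-GFP antibody against a C-terminal GFP-FLAG tag in whole hermaphrodite late embryos, 3 hours after synchronization by egg bleaching. Strain OP520 carries unc-119(tm4063) III and the integrated transgene wgIs520, and both samples, biological replicates 1 and 2 of 1 group, share this genotype. The tagged protein comes from the transgene, and no untagged, control or other-stage sample was analysed here. AIY is a small fraction of a whole embryo, so binding in few cells and weak binding in many cells cannot be told apart.

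AIY is a pair of cholinergic interneurons that receive input from sensory neurons for temperature and odor. The LIM homeodomain protein TTX-3 and the paired-type homeodomain protein CEH-10 act together as a terminal selector: they bind the control regions of many AIY genes, and of their own genes, and keep them on. REF-2 is known to act one step earlier, in the mother cell of AIY, where it helps to start ttx-3 transcription, and the Wnt pathway factors POP-1 and SYS-1 bias ttx-3 toward the daughter that becomes AIY.

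Each gene was given a window of its body, 5 kb upstream and 1 kb downstream. Summits were read from 4 deposited lists. The optimal list holds the 2129 peaks that passed the authors' reproducibility threshold, with signals from 105.5 upward. The pooled list and the list of each replicate hold 30000 peaks each, most of them weak, down to signals of 37.2 in the pooled list, 18.5 in replicate 1 and 21.3 in replicate 2. Pooled signal was close to the sum of the replicate signals, with a median ratio of 0.996 at the 16926 pooled summits matched in both. A match means a replicate summit within 200 bp, the strongest where there were several. Across those summits the log2 ratio of replicate 2 to replicate 1 had a median of 0.21, and the 5th to 95th percentiles ran from -0.56 to 0.98, which is the spread against which single peaks are read here.

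Only kal-1 had an optimal peak. The count of 1 in 10 stands beside 17.3% of all protein-coding genes under the same window. A pooled summit lay in the windows of 7 of the 10 genes, against 81.1% of all genes, and a pooled summit matched in both replicates in 6, against 66.6%. For 3 genes, ceh-10, ser-2 and kal-1, such a summit was among the 10000 strongest of both replicates, against 34.5% of all genes. With 10 genes these counts are not read as a departure from the background, and no test was made, since there was 1 group and the genes were chosen with results known. The median over the 10 genes of the strongest pooled signal was 62.8, with the 3 genes without a summit at the list's lowest value, and over all protein-coding genes it was 62.4. These medians are not matched for window length, which had a median of 10587 bp for the 10 genes and 8027 bp for all genes. The strongest signal was higher in longer windows, as given below. The optimal kal-1 peak had a deposited −log10 q of 1.003, where higher means stronger evidence, and the lowest optimal value was 0.95. The strongest summits of ser-2, ceh-10, cho-1, ttx-3, unc-17 and sra-11 had 0.75, 0.23, 0.21, 0.17, 0.14 and 0.06. A listed summit is thus not by itself taken as binding.

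**Figure D1:**
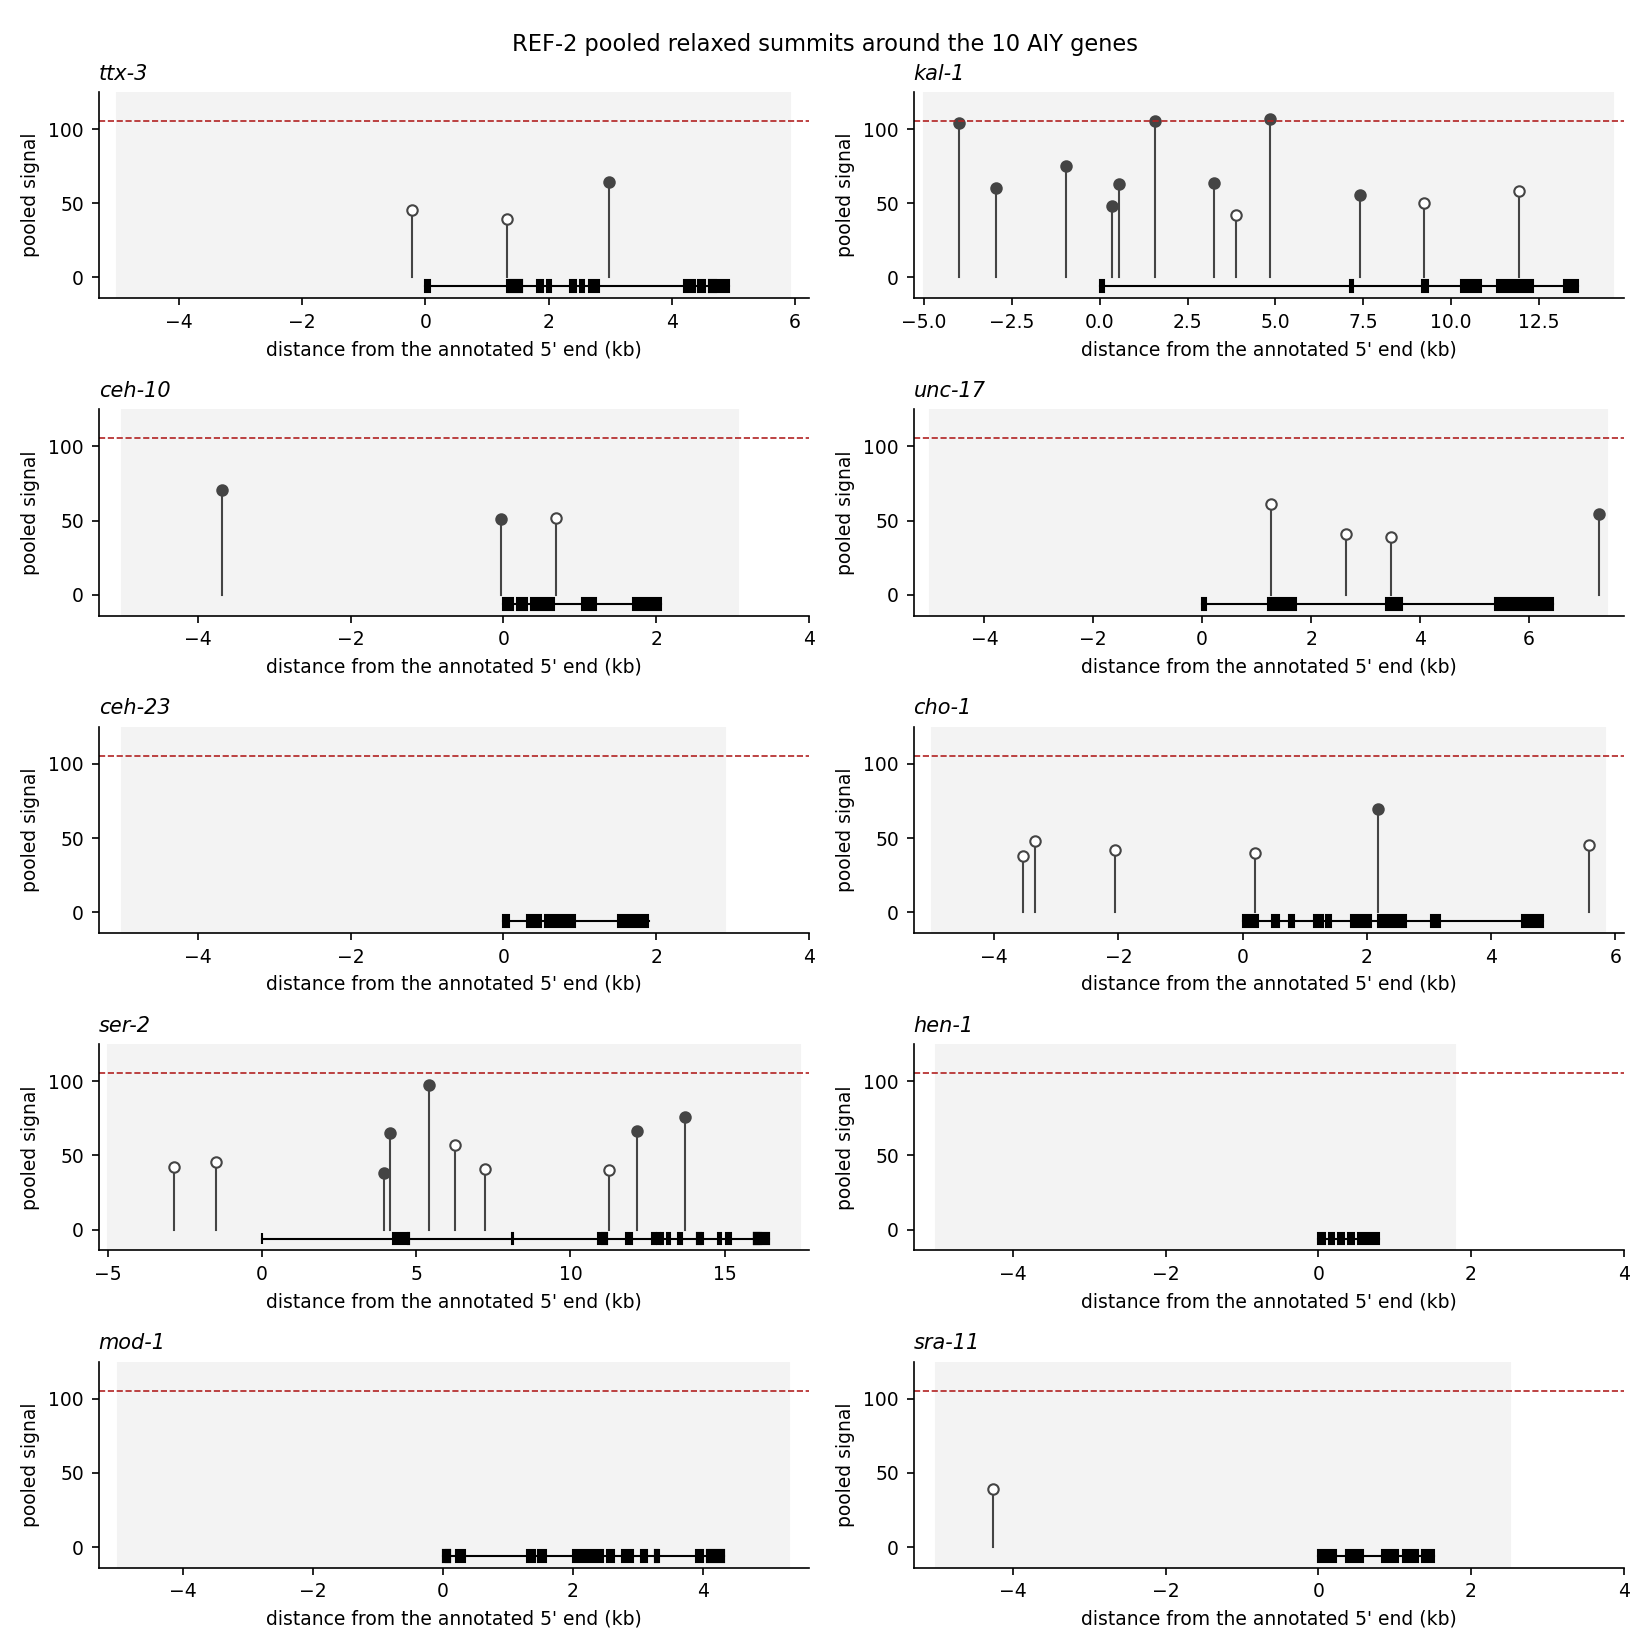
Pooled signal (vertical axis) of every pooled summit in the windows of the 10 genes, against distance from the annotated 5' end in kb (negative is upstream). Filled points were matched in both replicates, open points in 1 or neither, black boxes are exons of any transcript, grey shading is the window, and the dashed line is the lowest optimal signal (105.5). In kal-1, 3 summits reach or nearly reach the line, while ceh-23, mod-1 and hen-1 have no point.

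At ttx-3 itself, a gene of 4923 bp on X (11764456 to 11769378, minus strand), no optimal peak was found in the window. Its strongest summit, at 11766405, had a pooled signal of 64.5 and ranked 8682. Replicate 1 had 24.7 there (rank 16817) and replicate 2 had 41.97 (rank 6117). The log2 ratio of 0.76 lay inside the range of other peaks. This summit was 2973 bp downstream of the 5' end, in intron 7 of 9 of the longer annotated transcript and intron 6 of 8 of the shorter.

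The other pooled summits of ttx-3 were weaker and were matched in replicate 1 only. One, 218 bp upstream of the 5' end, had a pooled signal of 45.6 and a replicate 1 signal of 22.6. The other, with a pooled signal of 39.6 and a replicate 1 signal of 20.7, lay in a coding exon of the longer transcript and 5 bp upstream of the annotated start of the shorter one. Replicate 2 listed neither. The nearest optimal peak lay 6605 bp from the gene body and nearest to lact-7, with a signal of 177. The strongest ttx-3 signal exceeded that of 53.1% of protein-coding genes, close to the middle of all genes. Among genes with windows of 9 to 15 kb, as ttx-3 has, the 42nd percentile was 64.1.

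The Zic-type core CAGCAGG or CAGCGGG, on either strand, occurred at 2 places in the ttx-3 window, and neither lay within 100 bp of a pooled summit. One was in a coding exon, centred 250 bp from the intronic summit. A weak replicate 2 summit, with a signal of 23.7 and rank 25272, lay 45 bp from the centre of this core, 2768 bp downstream of the 5' end, and had no pooled summit within 200 bp. The other was upstream, centred at -889 bp from the 5' end and 671 bp from the nearest pooled summit. Sequence is shown for 100 bp on each side of the intronic summit, for 31 bp around each core and for 100 bp on each side of the strongest ceh-10 summit, from the RefSeq WBcel235 genome (the assembly called ce11), 5' to 3' on the strand of the gene. Capitals in the long stretches mark any match to the Zic cores, the E box CANNTG bound by bHLH proteins such as HLH-2, the core CTTTGA bound by TCF proteins such as POP-1, or the homeodomain core TAATTA, each on either strand. Capitals in the 31 bp stretches mark the Zic core.
ttx-3 summit, chrX:11766305-11766505, minus strand: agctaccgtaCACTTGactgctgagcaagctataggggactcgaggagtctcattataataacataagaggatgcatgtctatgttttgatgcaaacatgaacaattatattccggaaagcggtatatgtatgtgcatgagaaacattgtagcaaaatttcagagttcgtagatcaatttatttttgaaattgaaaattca
ttx-3 exonic core, chrX:11766640-11766670, minus strand: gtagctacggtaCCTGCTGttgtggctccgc
ttx-3 upstream core, chrX:11770252-11770282, minus strand: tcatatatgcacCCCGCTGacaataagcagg
ceh-10 summit, chrIII:5795264-5795464, plus strand: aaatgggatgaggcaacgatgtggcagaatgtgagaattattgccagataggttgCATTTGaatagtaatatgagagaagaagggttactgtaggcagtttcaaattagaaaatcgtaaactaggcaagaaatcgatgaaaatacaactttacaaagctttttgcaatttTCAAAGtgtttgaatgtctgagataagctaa

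In ceh-10 (III, 5799047 to 5801115, plus strand) 3 pooled summits were found, 2 of them matched in both replicates. The strongest summit, 3683 bp upstream at 5795364, had a pooled signal of 70.8 (rank 6644), with 32.7 in replicate 1 and 35.8 in replicate 2 and a log2 ratio of 0.13. A second summit, 33 bp upstream of the 5' end, had a pooled signal of 50.9, with 30.02 in replicate 1 and 29.6 in replicate 2. Its pooled rank was 16331, and its replicate signals differed by a log2 ratio of -0.02. A summit in intron 3 of 4 (pooled 51.8) was matched in replicate 1 only, at 34.0. All 3 summits lay inside the span of polq-1, a DNA polymerase gene on the other strand that contains the whole of ceh-10. In the upstream peak the replicate 1 summit lay over 100 bp from the pooled one, and with matching within 100 bp ceh-10 no longer had a summit among the 10000 strongest of both replicates.

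The third homeobox gene, ceh-23, had no summit in the window in any of the 4 lists. It encodes a homeodomain protein that TTX-3 and CEH-10 switch on in AIY. Its window on III (gene at 7839592 to 7841491) was 7900 bp long. The nearest optimal peak, of signal 551 and nearest to the ribosomal protein gene rpl-35, lay 13192 bp from the gene body. An absent entry means a pooled signal under 37.2, not a signal of 0.

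Among the receptor genes, ser-2, which encodes a tyramine receptor, ranked after kal-1 when the 10 genes are ordered by their strongest peak. The gene has 7 annotated transcripts over 16431 bp of X (15286533 to 15302963, minus strand), and 10 pooled summits lay in its window, 5 of them matched in both replicates. The strongest, at 15297557, had a pooled signal of 97.5 (rank 2626), below the optimal threshold, with 57.7 in replicate 1 (rank 1633) and 42.2 in replicate 2 (rank 6013). The log2 ratio was -0.45. It lay 5406 bp downstream of the 5' end, in intron 1 in 3 of the 7 transcripts.

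That summit was 13 bp from a tRNA gene, WBGene00009936, which lies on the opposite strand inside ser-2 (15297471 to 15297544). The Zic-type core nearest to it, centred 22 bp from the summit and the only one in the ser-2 window, lies inside the tRNA gene. Among all optimal summits, 7.56% had a tRNA gene within 200 bp, among all pooled summits 1.22%, and among the 39 pooled summits of the 10 genes this 1. The 100 bp on each side of the summit are printed with the core in capitals, and the tRNA gene covers printed bases 114 to 187, in antisense.
ser-2 summit, chrX:15297457-15297657, minus strand: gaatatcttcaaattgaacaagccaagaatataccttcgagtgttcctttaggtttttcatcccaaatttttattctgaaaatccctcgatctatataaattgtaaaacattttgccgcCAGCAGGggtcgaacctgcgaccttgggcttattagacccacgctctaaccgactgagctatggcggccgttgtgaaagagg

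Leaving this peak out, the strongest ser-2 signal was 75.9, at a summit 13714 bp downstream of the 5' end, where the replicates had 34.3 and 41.1 (log2 ratio 0.26). This summit lay in an intron of 5 transcripts, and the replicate ranks were 6769 and 6526, so it too was among the 10000 strongest of both. Its nearest protein-coding 5' end was that of jud-4, 5134 bp away. With summits given only to the nearest 5' end, ser-2 kept 1 summit among the strongest of both, the one beside the tRNA gene. A summit 12152 bp downstream had a pooled signal of 66.6, with 25.4 in replicate 1 and 41.9 in replicate 2, and lay over the small noncoding gene C02D4.9. It was also nearest to the 5' end of jud-4, 6696 bp away. Of the 10 ser-2 summits, 8 were intronic and 2 upstream, and 6 had a noncoding gene within 200 bp, as did 10.6% of all pooled and 28.6% of optimal summits. The intronic summits 7242, 4149 and 3949 bp downstream lay at -850, -106 and -306 bp from the nearest annotated ser-2 transcript start. The pair at 4149 and 3949 bp downstream shared 1 replicate 1 summit, of signal 25.3, and so are not separate observations there.

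The serotonin-gated chloride channel gene mod-1 (V, 8909704 to 8914040) had no pooled summit in its window. Replicate 1 listed 3 weak summits there, of signal 21.8, 22.5 and 27.7, the strongest at -693 bp from the 5' end with rank 12689, and replicate 2 listed none. The chemoreceptor-like gene sra-11 (II, 10908808 to 10910319) had 1 pooled summit, of signal 39.2 and rank 27531, matched in neither replicate. That summit, at -4264 bp from the sra-11 5' end, was 83 bp from the 5' end of F44F4.15, so it was nearer to another gene than to sra-11. Neither mod-1 nor sra-11 thus had a pooled summit matched in both replicates.

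The cholinergic genes unc-17 and cho-1 had only summits below the optimal threshold, 3 of 4 in the gene body for unc-17 and 2 of 6 for cho-1. The gene unc-17 encodes the vesicular transporter for acetylcholine and shares its 5' end with cha-1, the choline acetyltransferase gene whose span covers nearly all of it (5' ends 2 bp apart in the annotation), so binding there cannot be given to one of them. Its strongest summit (IV 3623441, pooled 61.2, rank 10117) lay in a coding exon 1258 bp downstream and was matched in replicate 1 only, at 29.1. The only unc-17 summit matched in both was past the gene's 3' end and inside cha-1, with a pooled signal of 54.6 and replicate signals of 27.7 and 22.9. Its nearest protein-coding 5' end was that of ltah-1.2, 4333 bp away.

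For cho-1, the choline transporter gene that supplies acetylcholine synthesis, 6 pooled summits were found, 1 of them matched in both replicates. This summit, at IV 13212379 in a coding exon 2187 bp downstream, had a pooled signal of 69.5 (rank 7034), but 43.4 in replicate 1 (rank 3394) and 26.8 in replicate 2 (rank 19887). Its log2 ratio of -0.69 lay outside the 5th to 95th percentiles given above. The upstream cho-1 summits had pooled signals of 37.6, 41.7 and 48.1 and were each matched in 1 replicate. Those at 3337 and 3541 bp upstream had small noncoding genes within 200 bp. Both strongest summits are printed, with capitals as for ttx-3, since that of unc-17 holds a Zic-type core centred 45 bp from it, and it and the ser-2 core are the only ones within 100 bp of a pooled summit of the 10 genes.
unc-17 summit, chrIV:3623341-3623541, minus strand: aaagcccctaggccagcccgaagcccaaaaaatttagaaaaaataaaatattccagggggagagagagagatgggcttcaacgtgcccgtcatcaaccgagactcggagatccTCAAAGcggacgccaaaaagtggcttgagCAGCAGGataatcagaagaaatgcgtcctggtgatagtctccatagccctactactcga
cho-1 summit, chrIV:13212279-13212479, minus strand: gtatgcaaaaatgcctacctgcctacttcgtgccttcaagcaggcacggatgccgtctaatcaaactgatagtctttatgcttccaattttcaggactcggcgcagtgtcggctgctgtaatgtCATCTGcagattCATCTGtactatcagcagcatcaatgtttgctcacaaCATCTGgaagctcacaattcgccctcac

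**Figure D2:**
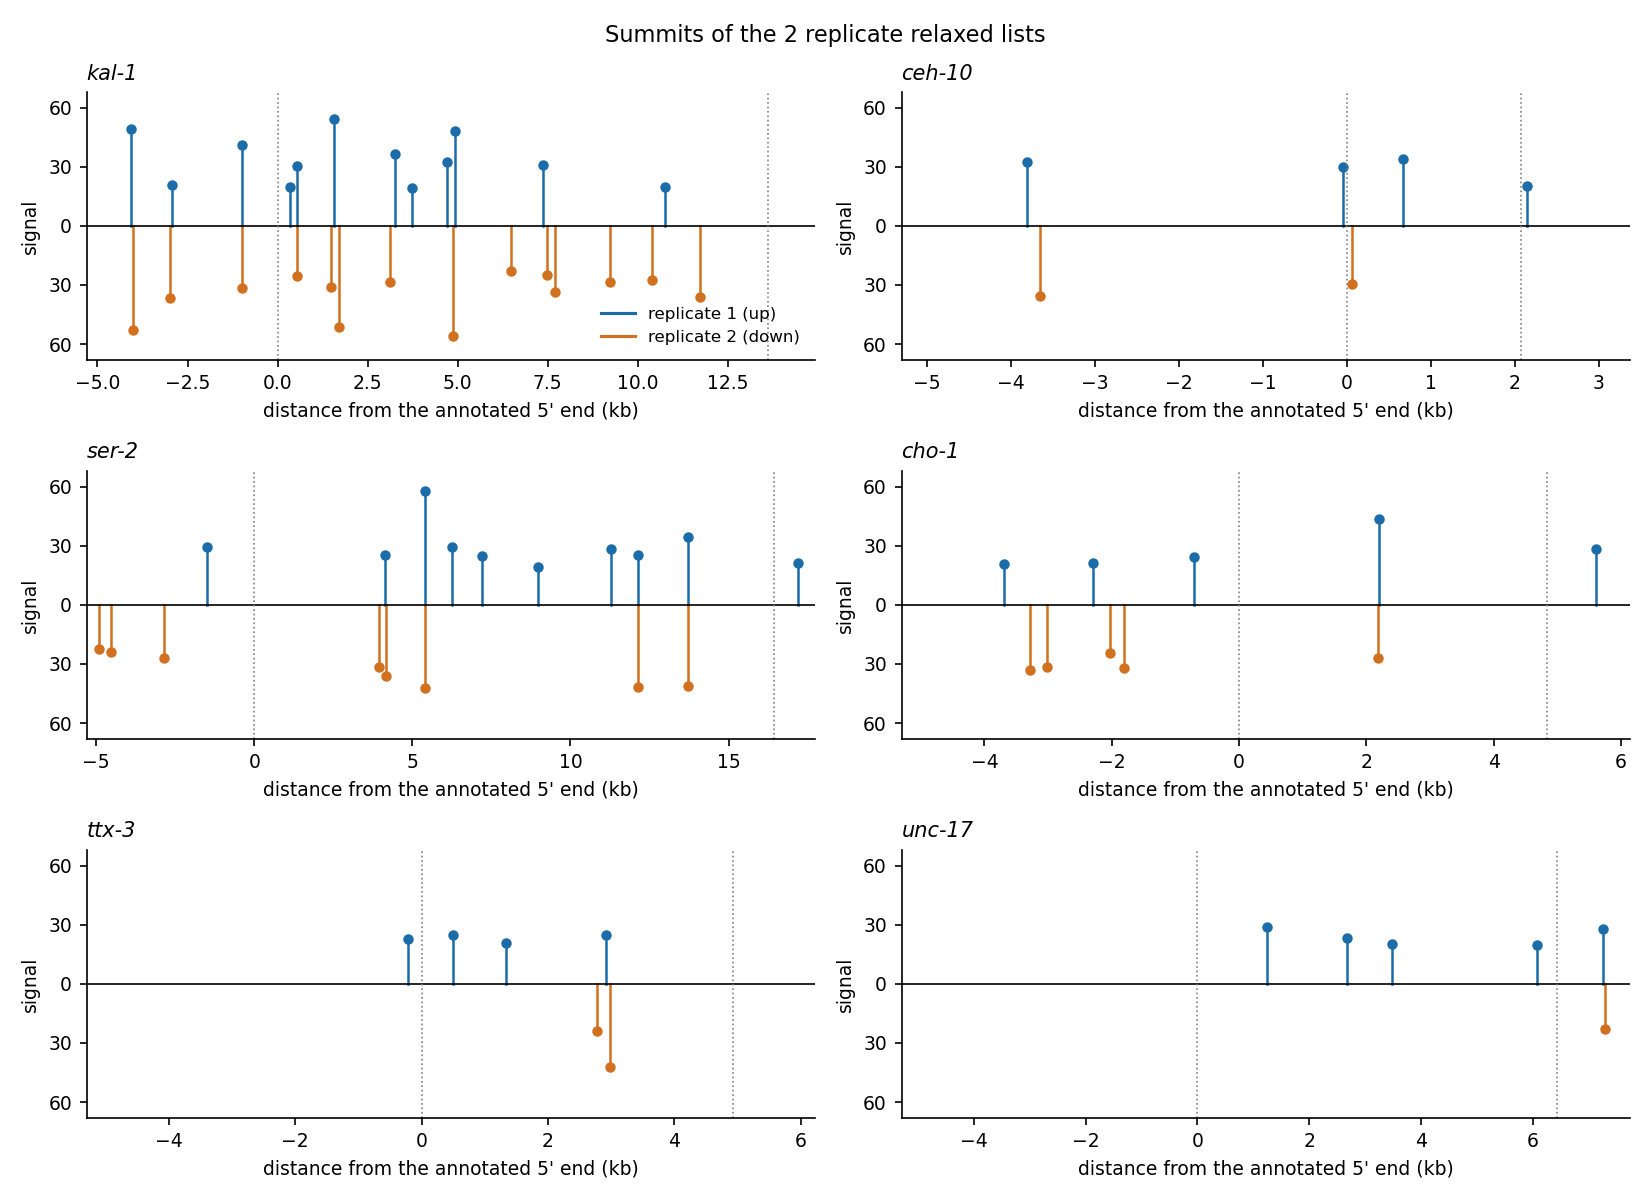
Signal of every summit in the relaxed list of replicate 1 (blue, upward) and of replicate 2 (orange, downward) against distance from the annotated 5' end in kb, for the 6 genes with a summit matched in both; dotted lines mark the ends of the gene. In kal-1 most summits have a point on both sides, whereas the body of unc-17 carries points of replicate 1 alone.

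Summits were most numerous at kal-1, which encodes a secreted extracellular matrix protein, the worm homolog of human anosmin, that acts in neurite branching and cell migration. The gene spans 13617 bp on chromosome I (14128591 to 14142207, minus strand) with 1 annotated transcript, and 12 pooled summits lay in its window, 9 of them matched in both replicates. Of all protein-coding genes, 240 had 12 or more, but windows this long hold more summits: among the 1233 genes with windows of 15 kb and over the median was 6, and 17.5% had 12 or more. Per 10 kb of window kal-1 had 6.12 pooled summits, ser-2 4.46, and all gene windows together 3.08.

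The optimal peak of kal-1 had its summit at 14137346, 4861 bp downstream of the 5' end in intron 1 of 5, with a pooled signal of 107 and rank 2061 of the 2129 optimal peaks. The replicates had 48.1 (rank 2587) and 55.7 (rank 2571), a log2 ratio of 0.21. A pair of further summits fell just short of the threshold. One, 1560 bp downstream in the same intron, had a pooled signal of 105.4 (rank 2138), with 54.2 and 51.6 in replicates 1 and 2 and a log2 ratio of -0.07. The other, 4010 bp upstream, had 104 (rank 2212), with 49.3 and 52.7 and a log2 ratio of 0.10. All 3 log2 ratios lay well inside the 5th to 95th percentiles, and the line between optimal and not optimal separates values of 107 and 105.4.

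The other kal-1 summits were weaker, and those 346 and 555 bp downstream shared 1 replicate 2 summit (signal 25.5). A summit 958 bp upstream had a pooled signal of 75.2, with 41.1 in replicate 1 and 31.5 in replicate 2. Its rank was 3929 in replicate 1 and 13777 in replicate 2, so it ranked higher in replicate 1. Intron 1 held 6 of the 12 summits, intron 2 held 1, 2 lay in coding exons and 3 were upstream. The exonic pair was matched in replicate 2 only (pooled 50.1) or in neither (58.6). The summit of 58.6 was nearer to the 5' end of mys-2 (11510 bp) than to that of kal-1 (11946 bp). Inside the peak of 58.6, replicate 2 did list a summit of signal 36.3 (rank 9384), just beyond the 200 bp limit for a match. None of the 12 had a noncoding gene within 200 bp, and the kal-1 window held 0 Zic-type cores.

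The second gene for a secreted protein, hen-1, had no summit in any list. It encodes a protein with an LDL receptor motif that acts in the integration of sensory signals. Its body is the shortest of the 10, at 795 bp on X (7116202 to 7116996), and its window of 6795 bp lies entirely below the listed signals. Windows under 9 kb held a pooled summit in 77.4% of 13541 genes, and in 2 of the 4 members of that size.

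**Figure D3:**
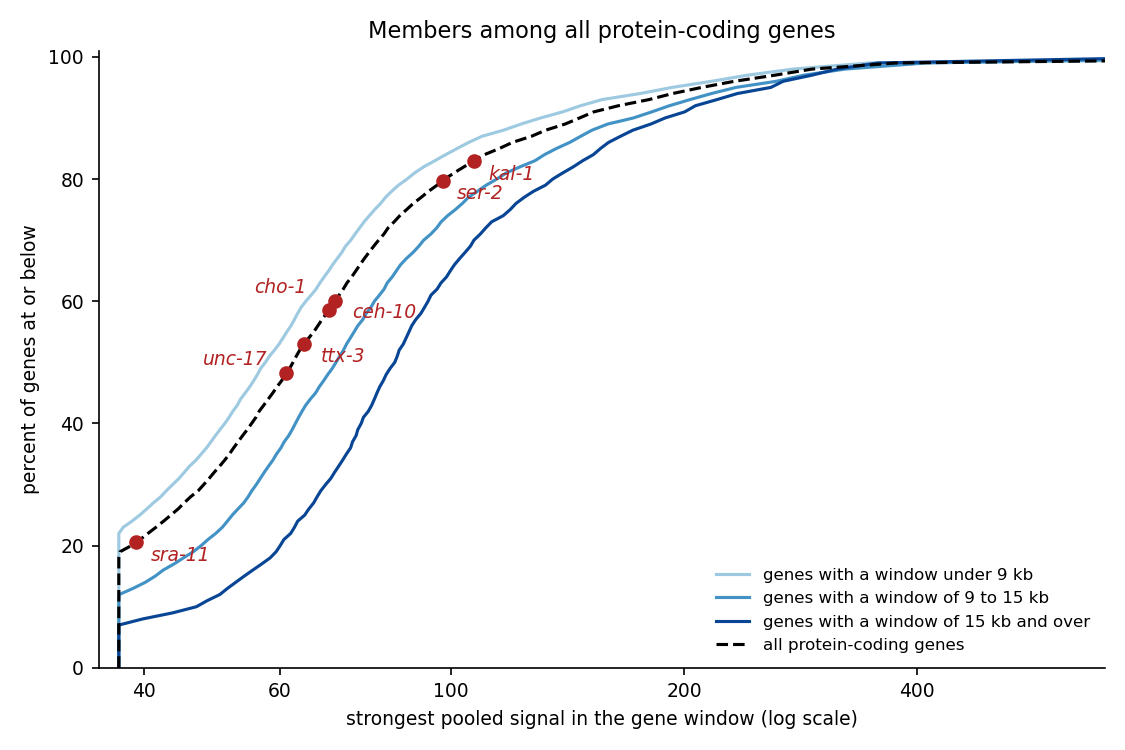
Percent of genes (vertical axis) whose strongest pooled signal was at or below the value on the horizontal, log axis, for all protein-coding genes (dashed) and for 3 classes of window length (blue lines); genes without a summit stand at 37.2. Red points are the 7 genes with a summit, placed on the line of all genes: they run from sra-11 (20.6%) to kal-1 (83.0%), and the lines for longer windows lie to the right.

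Placed among all protein-coding genes by strongest pooled signal, kal-1 exceeded 83.0% of genes, ser-2 79.7%, ceh-10 60.1%, cho-1 58.6%, ttx-3 53.1%, unc-17 48.2% and sra-11 20.6%. The neighbours cho-1 and ceh-10, at 69.5 and 70.8, differed by less than their own replicates did. The strongest signal was higher in longer windows, from a median of 57.5 in windows under 9 kb to 84.5 in windows of 15 kb and over. In the longest class, where kal-1 and ser-2 fall, the 63rd percentile was 97.0 and the 70th 107.0. These are near the 97.5 of ser-2 and the 107 of kal-1. Without the summit beside the tRNA gene ser-2 had 75.9, near the 39th percentile (75.7). In the same class 31.1% of genes had an optimal summit and 60.4% a summit among the 10000 strongest of both replicates. In the middle class, with ttx-3, mod-1, unc-17 and cho-1, none of the 4 had the latter, against 43.4% of genes. There the 37th percentile was 60.8, near unc-17, the 42nd 64.1, near ttx-3, and the 48th 69.2, near cho-1. In windows under 9 kb the 25th percentile was 39.6, near sra-11, and the 66th 70.3, near ceh-10.

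Of the 39 pooled summits of the 10 genes, 18 lay in introns, 7 in coding exons, 12 upstream and 2 downstream, and 3 lay within 1000 bp upstream of the 5' end. The 5' end here is the outermost annotated one. Measured from the nearest annotated transcript start, further summits lay close upstream, in ser-2 at -106, -306 and -850 bp and in ttx-3 at -5 bp. Those of ser-2 are counted above as intronic and that of ttx-3 as exonic. A match in both replicates was found for 19 of the 39, where 56.4% of all pooled summits had one, in replicate 1 only for 13, in replicate 2 only for 4 and in neither for 3. Of the 19, replicate 2 was higher at 10 and replicate 1 at 9. For 10 summits the nearest 5' end of a protein-coding gene was that of another gene. The genes kal-1 and ser-2 together held 22 of the 39.

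Sequence within 100 bp of these summits was searched for the same cores. A Zic-type core lay in 2 of the 39 stretches (5.13%), against 3.36% of all pooled summits, 6.62% of optimal summits and 1.58% of the genome cut into stretches of that length. An E box lay in 25 (64.1%), against 59.6%, 56.3% and 53.6%. The TCF core lay in 5 (12.8%, against 12.5%, 6.72% and 15.3%) and the homeodomain core in 3 (7.69%, against 5.88%, 5.21% and 9.32%). Median GC content was 42.8% at the summits of the 10 genes and at all pooled summits, 47.3% at optimal summits and 35.3% in the genome. The cores are short and these matches describe the letters only.

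Genes for factors that specify AIY were counted in the same way, from a list also chosen with earlier results of these data known. This list held ref-2, the bHLH genes hlh-2, hlh-3 and hlh-16, and the Wnt asymmetry genes pop-1 (TCF), sys-1 and wrm-1 (beta-catenins) and lit-1 (a kinase). An optimal summit was found in 6 of the 8 windows, and a summit among the 10000 strongest of both replicates in 8 of 8, beside 17.3% and 34.5% of all protein-coding genes. The median strongest signal was 194, beside 62.4 over all genes. The 8 genes held 7.08 pooled summits per 10 kb, against 3.34 for the 10 AIY genes. For hlh-2, which encodes the partner of many bHLH proteins, the strongest pooled signal was 219 (replicates 104 and 114), at -1100 bp from the 5' end. For pop-1 it was 197 (replicates 85.6 and 117), at -1261 bp, and for wrm-1 191 (replicates 89.4 and 110.1), at -659 bp. For hlh-16 it was 63.8 (replicates 32.7 and 39.4), 8 bp downstream of the 5' end. Some of these peaks were nearer to a neighbour: the strongest in the sys-1 window (677) was nearest his-67, a histone gene. That in the lit-1 window (177) was nearest W06F12.2, and that in the hlh-3 window (83.8) was nearest sysm-1. With summits given only to the nearest 5' end, sys-1 had 0 optimal summits. Counted that way, hlh-3 had 0 summits among the 10000 strongest of both replicates. The shares of all protein-coding genes under that rule were 8.37% with an optimal summit and 18.2% with one among the strongest of both.

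The ref-2 locus on X held 4 optimal summits, the strongest with a signal of 371 (rank 81), at 6067 bp downstream of the 5' end and nearest to deg-1. The part of the tagged transgene in the signal at ref-2 was not tested. For unc-119, the gene mutated in the strain, the strongest pooled signal was 97.9 (rank 2586), with 0 optimal summits.

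Further lists held other genes of AIY and of cholinergic neurons, and terminal selectors of other neuron types. Among cha-1, glc-3, flp-18, ncs-1, unc-40, ric-3 and ace-2, 0 of 7 had an optimal summit and 1 of 7, the netrin receptor gene unc-40, a summit among the 10000 strongest of both replicates (pooled 87.2, replicates 47.3 and 40.9), beside 17.3% and 34.5% of all protein-coding genes. Among 15 terminal selectors of other neuron types, 2 had an optimal summit, the homeobox gene unc-42 (114.5, replicates 54.1 and 59.9) and the ETS gene ast-1 (114.8, replicates 48.3 and 72.3), and 7 a summit among the 10000 strongest of both. The remaining 5 of these 7 were lin-11 (99.0), unc-86 (95.8), ceh-43 (83.9), ceh-36 (79.8) and lim-6 (79.5), with the strongest pooled signal of each in parentheses. These counts stand beside the same 17.3% and 34.5%. The median strongest signal was 65.2 for the first list and 72.5 for the second, beside 62.8 for the 10 AIY genes. The lists were not tested against each other.

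**Figure D4:**
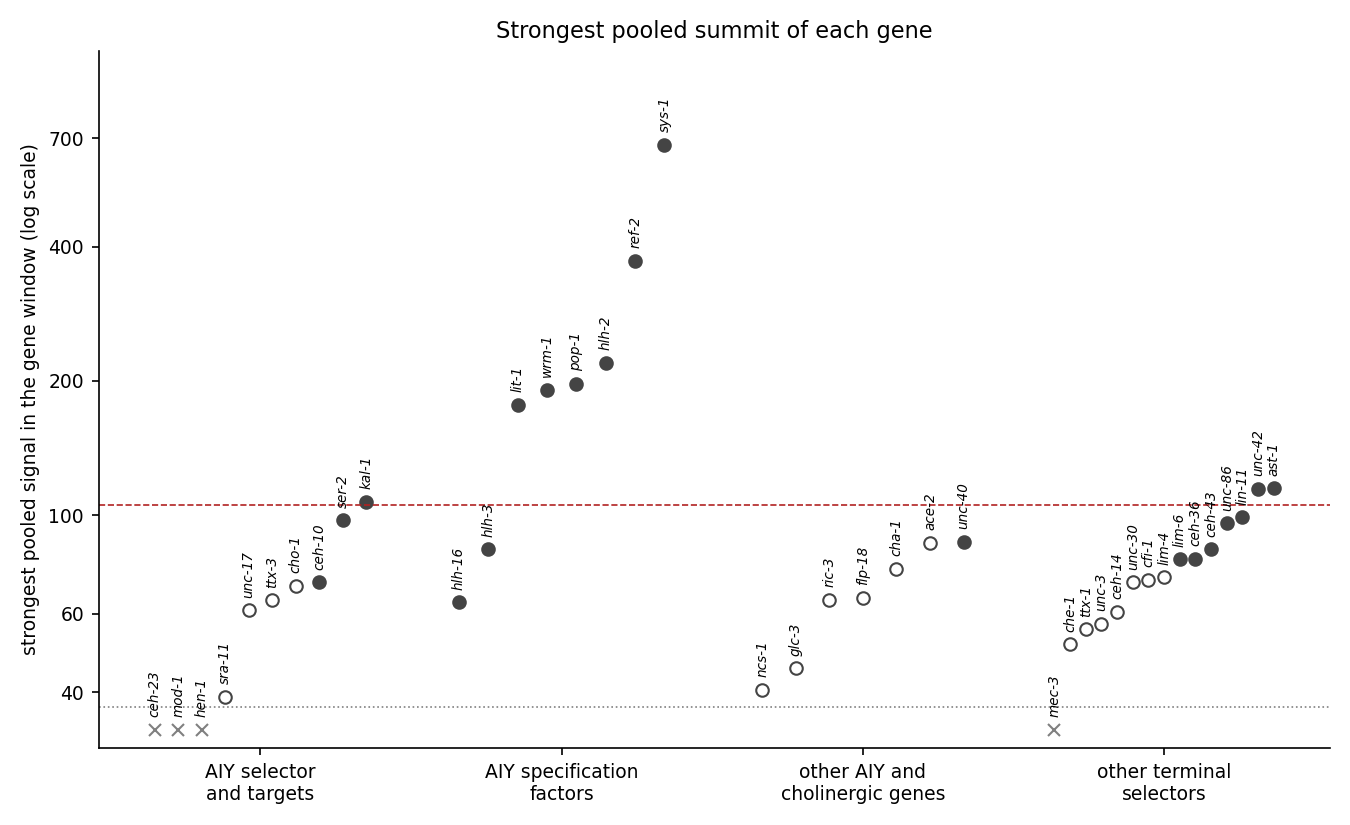
Strongest pooled signal in the gene window (log axis) for each gene of the 4 lists; filled points are genes with a summit among the 10000 strongest of both replicates, crosses are genes with no pooled summit, the dashed line is the lowest optimal signal (105.5) and the dotted line the lowest pooled signal (37.2). Of the 10 AIY genes 1 reaches the dashed line, and of the 8 specification factors 6 do.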

How the data were processed

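REF-2 ChIP-seq peak lists on ce11 were used for 2 biological replicates of 1 group. Signal per peak (column 7) and −log10 q (column 9) are the authors' deposited values. The optimal list, thresholded on reproducibility (IDR), equals the 2129 strongest pooled peaks by signal. Caller, aligner, versions, normalization between lists and read depth are not given in the sources used here; no counting interval could be made. Nothing in the labels says that the replicates were separate cultures. The ce10 lists were not used.

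Gene models came from Ensembl release 115 and sequence from RefSeq, both WBcel235, with 1-based coordinates and no conversion. Summits were counted in gene windows with Python 3.11.15 and numpy 2.4.6, and the counting was checked on simulated data. Motifs were searched on both strands. Members and lists were chosen with earlier results of these data known. No test was run. Values are given for all 10 members, companion-list genes with an optimal summit or one among the 10000 strongest of both replicates, ref-2 and unc-119. Where the 5' end of another protein-coding gene was nearest to a printed pooled summit, that gene is named. Other companion-list genes are named as list members only. Genes without a pooled summit count as 37.2 in medians. Alternatives covered windows, overlap, nearest 5' end, match distance, rank and each replicate.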

Additional observations from a re-analysis of the deposited data

How the results depend on the processing

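Replicate choice and window decided the counts. When the 2129 strongest peaks of 1 replicate replaced the optimal list, the members with an optimal summit ranged from 0 (without replicate 1) to 2 (without replicate 2, ser-2 and kal-1), beside 17% and 17.7% of all genes. In the 5 kb upstream alone, 0 had an optimal summit and 2, ceh-10 and kal-1, a summit matched in both replicates, beside 13.4% and 52.4% of all genes. Among the 5000 strongest of both replicates, only kal-1 had a summit (1 of 10, beside 21.5%). The median strongest pooled signal was 56.5 with 2 kb upstream, 42.3 with the upstream 5 kb alone and 50.8 with summits given only to the nearest 5' end, where all genes had 53.9, 52.1 and 44.6. In single replicates, on a lower scale, it was 28.0 in replicate 2 and 28.4 in replicate 1, below the 36.2 and 30.8 of all genes. The cause was not tested. Under the other alternatives the counts were 1 (optimal), 5 or 6 (matched in both) and 2 or 3 (among the strongest of both). With the 10000 strongest of either replicate alone, the last count was 4, beside 50.4% of all genes. Leaving out summits within 200 bp of a tRNA gene, an alternative chosen after seeing the data, changed none of the 3 counts and lowered the ser-2 maximum from 97.5 to 75.9. The ser-2 summit that then remained among the strongest of both was nearest to the 5' end of jud-4. No paired analysis was possible because there was 1 group. Depth is unknown, and a signal under 37.2 is not listed.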
